A study of Mus musculus with 30 samples.

Results

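Transcripts of 9 genes of the interleukin-1 (IL-1) family were followed through chemically induced colitis in the mouse colon: the ligands Il1a, Il1b, Il18 and Il33, the receptor antagonist Il1rn, the receptors Il1r1 and Il1rl1, the decoy receptor Il1r2 and the soluble inhibitor Il18bp. The members were taken by gene symbol from a count table of 46078 genes, all 9 were found there, and all 9 passed the filter on low counts. The 30 libraries came from wild-type C57BL/6J mice in 6 groups of 5, female and male: vehicle (saline injected i.p.) killed at 9 weeks, and AOM/DSS killed at 9 or at 15 weeks. AOM/DSS mice received 1 i.p. injection of the carcinogen azoxymethane (AOM, 10 mg/kg) followed by 3 cycles of the gut irritant dextran sulfate sodium (DSS, 2.5%), and mice were 5 to 10 weeks old at the start. RNA came from a scrape of the colon's epithelial layer, without tumors, so a library could hold any cell the scrape took along. All vehicle mice were killed at 9 weeks, so age and treatment cannot be told apart at 15 weeks, and comparisons with vehicle at both times share the same 10 control libraries.

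IL-1α and IL-1β bind the same receptor, IL-1R1, which signals through the adaptor MyD88 to NF-κB and drives cytokines, chemokines and prostaglandin synthesis. The receptor antagonist (from Il1rn) occupies IL-1R1 without signalling, IL-1R2 captures IL-1 without signalling, and IL-18 binding protein neutralises IL-18. IL-1β and IL-18 are made as inactive precursors that inflammasome caspases cut, whereas IL-33, an alarmin held in the nucleus, acts on ST2, the product of Il1rl1, which mast cells, regulatory T cells and type 2 innate lymphoid cells carry.

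The members lie on 5 chromosomes of the mouse genome (GRCm38/mm10), some side by side. Il1a (chr2:129299610-129309972, minus strand) and Il1b (chr2:129364570-129371139, minus strand) are neighbours 54.6 kb apart, and Il1rn (chr2:24336853-24351494, plus strand) lies far from them on the same chromosome. The receptors Il1r2 (chr1:40074079-40125231), Il1r1 (chr1:40225080-40317257) and Il1rl1 (chr1:40429570-40465415), all on the plus strand, fill 391 kb of chromosome 1, with gaps of 99.8 kb and 112 kb between them. Il18 was counted at chr9:50575273-50581837, plus strand, Il18bp at chr7:102015079-102018155, minus strand, and Il33 at chr19:29925114-29960718, plus strand. Transcripts of other genes overlap some of these spans, and Il1bos, annotated antisense to Il1b, had at most 20 counts in a library, while Gm14023, opposite Il1a, had 9 to 54 counts in every library. The strand setting of the counting is not given in the sources used here, so low counts of Il1a cannot be fully separated from those of Gm14023.

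The 120 bases before the start site are shown for the 5 members of which 9 or 10 of 10 treated libraries exceeded every vehicle library at 9 weeks (RefSeq, GRCm38.p6, read 5′ to 3′ on the gene's strand). How many of all tested genes separated in this way was not counted, so such separation is only described, here and below. Capitals mark a motif. They are Il1a at chr2:129309973-129310092 (minus), Il1b at chr2:129371140-129371259 (minus), Il1r2 at chr1:40085973-40086092 (plus), Il18bp at chr7:102018233-102018352 (minus) and the upstream of 2 start sites of Il1rl1 at chr1:40429450-40429569 (plus).
Il1a: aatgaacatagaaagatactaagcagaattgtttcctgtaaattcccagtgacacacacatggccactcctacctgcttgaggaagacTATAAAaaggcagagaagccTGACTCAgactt
Il1b: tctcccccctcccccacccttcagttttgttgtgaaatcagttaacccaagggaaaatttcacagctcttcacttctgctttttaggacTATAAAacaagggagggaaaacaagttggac
Il1r2: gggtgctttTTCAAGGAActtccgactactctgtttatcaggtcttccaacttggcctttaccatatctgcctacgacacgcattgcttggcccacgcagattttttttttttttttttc
Il18bp: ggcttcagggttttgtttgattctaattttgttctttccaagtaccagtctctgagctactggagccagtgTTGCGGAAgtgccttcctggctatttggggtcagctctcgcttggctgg
Il1rl1: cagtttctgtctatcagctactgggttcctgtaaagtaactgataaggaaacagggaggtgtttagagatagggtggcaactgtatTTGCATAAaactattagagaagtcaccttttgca
Il1a and Il1b, the neighbouring ligands, both carry the TATA box letters TATAAA, 32 and 31 bases before the start, and Il1a also carries an AP-1 match (TGANTCA) 12 bases before it. Il1r2 has a STAT match (TTCNNNGAA) 111 bases before its start, and Il18bp and Il1rl1 have a C/EBP match (TTGCNNAA) 49 and 34 bases before theirs. In the 250 bases upstream of 32841 mouse start sites, searched on both strands, TATAAA was present in 12.4%, TGANTCA in 6.75%, TTCNNNGAA in 7.02%, TTGCNNAA in 9.57% and the NF-κB consensus in 7.25%. Of the 14 start sites of the 9 members, the NF-κB consensus was matched in 1, the downstream start site of Il1r1. A match is a description of letters in this window and does not mark a bound site.

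Levels are given as counts scaled to a library's total (CPM) when a gene is followed across libraries, and as TPM, which are also scaled by transcript length, when genes are compared with each other. Library totals ran from 9265804 to 30806392 counts (median 24697064), lowest in vehicle female replicate 5, so 1 count was worth most in that library. Changes are log2 fold changes from the quasi-likelihood test of edgeR, with SE, and a gene was called when its Benjamini-Hochberg adjusted p over 16261 tested genes stood below 0.05, the change exceeded 0.4 on the log2 scale in either direction, and the mean FPKM reached 1 in a compared group. A pair of libraries limits several results. Vehicle male replicate 1 held squamous, fibroblast and smooth muscle transcripts far above the other vehicle libraries (summed markers of 341, 1862 and 6043 CPM, against medians over vehicle libraries of 11.6, 170 and 143.4 CPM), and AOM/DSS female replicate 5 at 9 weeks had vehicle-like levels of several inflammatory genes. Summed markers of colon epithelium were 20774 to 48405 CPM in vehicle, 25495 to 51092 CPM at 9 weeks and 27298 to 54474 CPM at 15 weeks.

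In vehicle colon the family was led by Il18 and the receptor antagonist. Median TPM over the 10 vehicle libraries fell in the order Il18 (66.0), Il1rn (15.3), Il1r1 (2.81), Il18bp (2.05), Il33 (0.318), Il1b (0.117), Il1r2 (0.0867), Il1rl1 (0.0723) and Il1a (0). Ranges of neighbours in this order overlapped except between Il1rn (5.38 to 78.4 TPM) and Il1r1 (1.58 to 3.68 TPM). At 9 weeks of AOM/DSS the order by median TPM was Il18 (82.5), Il1rn (41.1), Il1b (13.4), Il18bp (6.51), Il1r1 (3.05), Il1a (1.81), Il1r2 (1.15), Il1rl1 (1.11) and Il33 (0.596), and the ranges of all neighbours overlapped. Il1b thus stood behind only Il18 and Il1rn by median TPM at 9 weeks, whereas in vehicle 5 members lay above it. At 15 weeks its median was 0.410 TPM.

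**Figure D1:**
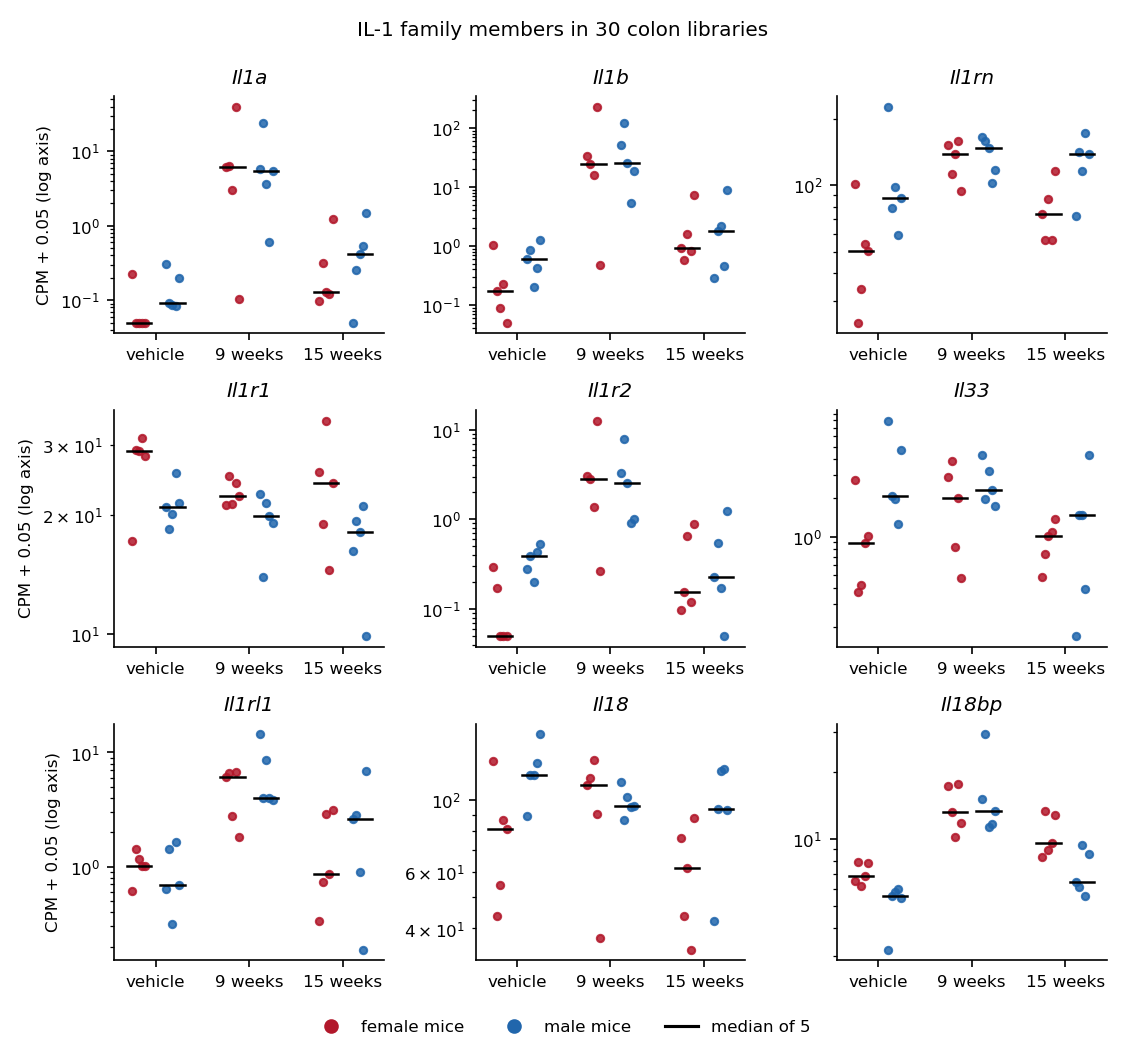
CPM of the 9 members (1 panel a gene, log axis) in each of the 30 libraries, with vehicle, 9-week and 15-week groups of both sexes side by side. Il1a, Il1b and Il1r2 exceed every vehicle library in 9 of the 10 libraries at 9 weeks, whereas Il18 and Il1r1 overlap across the 3 conditions.

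The first question was how the family answered to treatment at 9 weeks, soon after the last DSS cycle. With the sexes averaged, 6 of the 9 members were higher than in vehicle and none lower: Il1a, Il1b, Il1rn, Il1r2, Il18bp and Il1rl1. Over all tested genes 5.51% were called higher, and the median log2 fold change was -0.02, against 1.32 over the members. Il1r1, Il18 and Il33 were not called. In a scrape, more cells of a type and more RNA per cell cannot be told apart.

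Il1b, the secreted ligand of macrophages and neutrophils, was low in vehicle colon, with 0.986, 0.122, 0.0370, 0.177 and 0 CPM in female replicates 1 to 5 and 0.553, 0.813, 0.150, 0.380 and 1.23 CPM in males. At 9 weeks it reached 33.4, 24.8, 16.1, 226 and 0.430 CPM in females and 52.0, 123, 25.7, 5.31 and 18.9 CPM in males. Thus 9 of 10 treated libraries exceeded every vehicle library, female replicate 5 (8 counts) lay among the vehicle values, and female replicate 4 alone held 5308 counts. The change was 6.88 on the log2 scale (SE 0.910, edgeR adjusted p = 5.25e-06), or 117-fold with the sexes averaged. It was 6.04 without 9-week female replicate 4 and 7.70 without vehicle female replicate 1, the extremes of 20 fits that each left out 1 library, all of them called.

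Il1a, the membrane-bound and nuclear ligand released by damaged cells, exceeded every vehicle library in the same treated libraries as Il1b. Vehicle females had 5 counts in replicate 1 and 0 in the other 4, and vehicle males had 8, 1, 1, 1 and 4 counts. At 9 weeks the counts were 147, 147, 86, 921 and 1 in females (0.0538 to 39.2 CPM) and the levels in males were 5.74, 23.7, 3.61, 0.553 and 5.42 CPM. Again female replicate 5 was the 1 treated library that did not exceed vehicle, and female replicate 4 and male replicate 2 were the highest. The log2 fold change of Il1a was 6.97 (SE 0.957, edgeR adjusted p = 8.88e-06), a size that rests on the few counts in vehicle and ran from 6.23 without 9-week female replicate 4 to 8.59 without vehicle female replicate 1. Over the 30 libraries the log2 CPM of Il1a and Il1b had a Spearman rho of 0.918, given as a description over libraries that share the treatment groups.

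Il1rn, the antagonist, was abundant in every library. Vehicle females had 101.1, 23.8, 33.9, 53.9 and 50.3 CPM, and vehicle males 225, 78.8, 97.8, 59.2 and 87.8 CPM. At 9 weeks females had 153, 112, 138, 158.4 and 94.5 CPM, and males 165, 158.7, 148, 103 and 116 CPM. In females 4 of 5 treated libraries lay above all vehicle females, whereas in males none exceeded vehicle replicate 1, whose 225 CPM was the highest of all 30 libraries. The averaged change was 0.82 (SE 0.232, adjusted p = 0.0141), or 1.77-fold. The part of the squamous and stromal transcripts of vehicle male replicate 1 in its Il1rn level was not tested.

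The balance of antagonist and ligands is given by their TPM within a library. Il1rn over the sum of Il1a and Il1b had a median of 123 in the 8 vehicle libraries where a ligand was above 0 TPM (37.3 to 368), 2.60 at 9 weeks (0.357 to 120) and 33.0 in 9 libraries at 15 weeks (7.62 to 105). The ligands outnumbered the antagonist, a ratio below 1, in 2 libraries, female replicate 4 and male replicate 2 at 9 weeks. These ratios are descriptions, with no test.

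**Figure D2:**
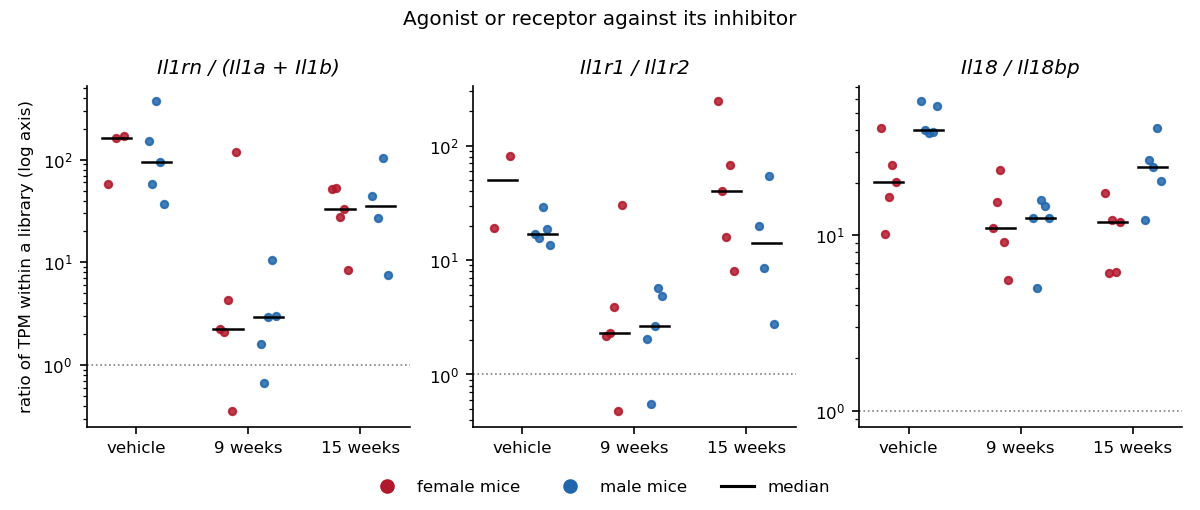
Ratios of TPM within each library (log axis) by condition: Il1rn over Il1a plus Il1b, Il1r1 over Il1r2, and Il18 over Il18bp, with points for libraries and a line at the median. The first ratio has medians of 123, 2.60 and 33.0 in vehicle, at 9 and at 15 weeks, and libraries whose denominator is 0 are left out.

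Il1r2, the decoy, rose while the signalling receptor Il1r1 was not called. Il1r2 had 7, 3, 0, 0 and 0 counts in vehicle females and 7, 8, 4, 11 and 13 in vehicle males. At 9 weeks it had 70, 64, 38, 294 and 4 counts in females (0.215 to 12.5 CPM) and 91, 180, 72, 28 and 28 in males (0.860 to 7.86 CPM). The 9 treated libraries above all vehicle libraries were the same as for Il1a and Il1b, with female replicate 5 as the exception each time. The log2 fold change was 4.36 (SE 0.724, edgeR adjusted p = 0.000111), or 20.5-fold, and ran from 3.80 to 4.94 without the same 2 libraries in turn. Il1r1 stayed between 13.8 and 31.2 CPM in all vehicle and 9-week libraries, with a change of -0.19 (95% interval -0.47 to 0.09, adjusted p = 0.389). The TPM ratio of Il1r1 to Il1r2 had a median of 18.7 in 7 vehicle libraries and 2.50 at 9 weeks, where it fell below 1 in 2 libraries.

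Il1rl1, which encodes the IL-33 receptor ST2, had 0.563, 1.38, 1.11, 0.972 and 0.960 CPM in vehicle females and 0.586, 1.37, 0.262, 1.59 and 0.635 CPM in vehicle males. At 9 weeks it had 6.05, 6.50, 2.74, 6.64 and 1.77 CPM in females and 14.4, 3.97, 8.48, 3.96 and 3.75 CPM in males. All 10 treated libraries exceeded all 10 vehicle libraries, female replicate 5 included. The change was 2.60 (SE 0.487, edgeR adjusted p = 0.000404), or 6.06-fold. Its ligand Il33 was low, from 0.324 to 7.87 CPM in vehicle and 0.430 to 4.25 CPM at 9 weeks, under the FPKM minimum in these averaged groups, with a change of 0.25 (95% interval -0.72 to 1.22, adjusted p = 0.779). The highest Il33 of all 30 libraries was again in vehicle male replicate 1, at 7.87 CPM.

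Il18bp, which neutralises IL-18, had the smallest SE among the called members. Vehicle females had 6.48, 7.83, 6.14, 6.76 and 7.78 CPM and vehicle males 3.16, 5.52, 5.73, 5.91 and 5.41 CPM. At 9 weeks females had 17.2, 13.2, 10.1, 17.5 and 11.8 CPM and males 15.1, 29.4, 11.3, 11.6 and 13.3 CPM. The groups did not overlap in either sex, and the change was 1.32 (SE 0.166, edgeR adjusted p = 2.24e-06), or 2.51-fold. Il18 itself, the most abundant member, ranged from 43.8 to 160 CPM in vehicle and 37.4 to 133.1 CPM at 9 weeks, with a change of -0.01 (95% interval -0.46 to 0.43, adjusted p = 0.975). The TPM ratio of Il18 to Il18bp had a median of 38.6 in vehicle (10.1 to 57.8), 12.6 at 9 weeks (5.04 to 23.6) and 14.9 at 15 weeks (6.08 to 40.8).

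**Figure D3:**
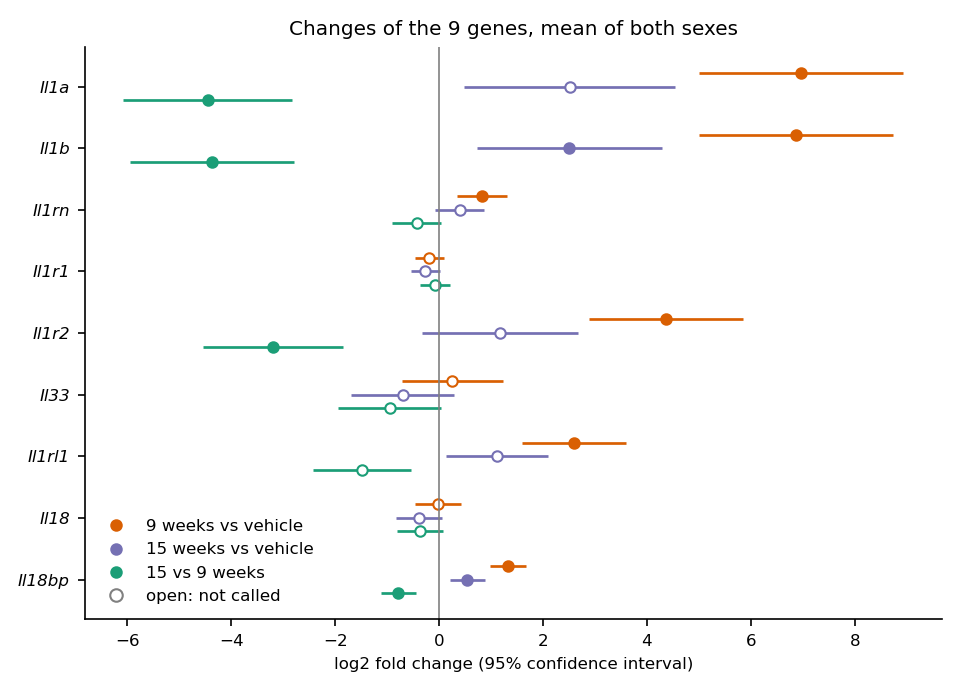
Log2 fold change of each member with its 95% interval from edgeR, sexes averaged, for 9 weeks against vehicle, 15 weeks against vehicle and 15 against 9 weeks (filled points are called, open points are not). Il1a (6.97) and Il1b (6.88) lead at 9 weeks, and no member has a positive change from 9 to 15 weeks.

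The 9-week answer was then read within each sex. In males 5 of 9 members were called higher, where 4.42% of all tested genes were: Il1a (6.11), Il1b (6.16), Il1r2 (3.26), Il18bp (1.65) and Il1rl1 (2.96, adjusted p = 0.00716). In females 5 of 9 were called higher, where 2.42% of all tested genes were: Il1a (7.83), Il1b (7.59), Il1rn (1.32), Il1r2 (5.46) and Il18bp (0.999). Il1rl1 in females had a change of 2.24 (SE 0.685, edgeR adjusted p = 0.0604), and was called by DESeq2 (2.26, adjusted p = 0.0123) and by edgeR on the compared libraries alone (2.25, adjusted p = 0.0204). Il1rn in males had a change of 0.33 (SE 0.325, edgeR adjusted p = 0.567). A different list in each sex does not show that the sexes differed, so the male change minus the female change was tested directly. By edgeR 0 of 9 members, and 0% of all tested genes, passed at 9 weeks, and DESeq2 also called 0 members. Il1rn was the 1 member with an unadjusted interaction p under 0.05, where 1205 of the 16261 tested genes had one. Its interaction was -0.99 (SE 0.461, edgeR adjusted p = 0.660), and that of Il18bp was 0.65 (95% interval -0.02 to 1.32). For Il1b the interval of the interaction ran from -4.93 to 2.08, so differences between the sexes of several-fold in either direction lie within it.

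Single libraries carried some of these calls within a sex. Without vehicle male replicate 1, vehicle male replicate 3 or 9-week male replicate 2, Il1r2 in males was no longer called (edgeR adjusted p up to 0.0968). Il1rn in females kept its call in 5 of 10 fits that each left out 1 library, and lost it without vehicle female replicate 2, 3 or 5 or without 9-week female replicate 1 or 4 (adjusted p up to 0.0689). Without 9-week female replicate 5, Il1rl1 in females was called (adjusted p = 0.0273). The sizes in females also moved with single libraries. Without 9-week female replicate 4 the log2 fold changes were 6.35 for Il1a, 5.92 for Il1b and 4.35 for Il1r2, and without vehicle female replicate 1 they were 11.07, 9.23 and 6.61. In males, without 9-week replicate 2, they were 5.09 for Il1a, 5.35 for Il1b and 2.56 for Il1r2.

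**Figure D4:**
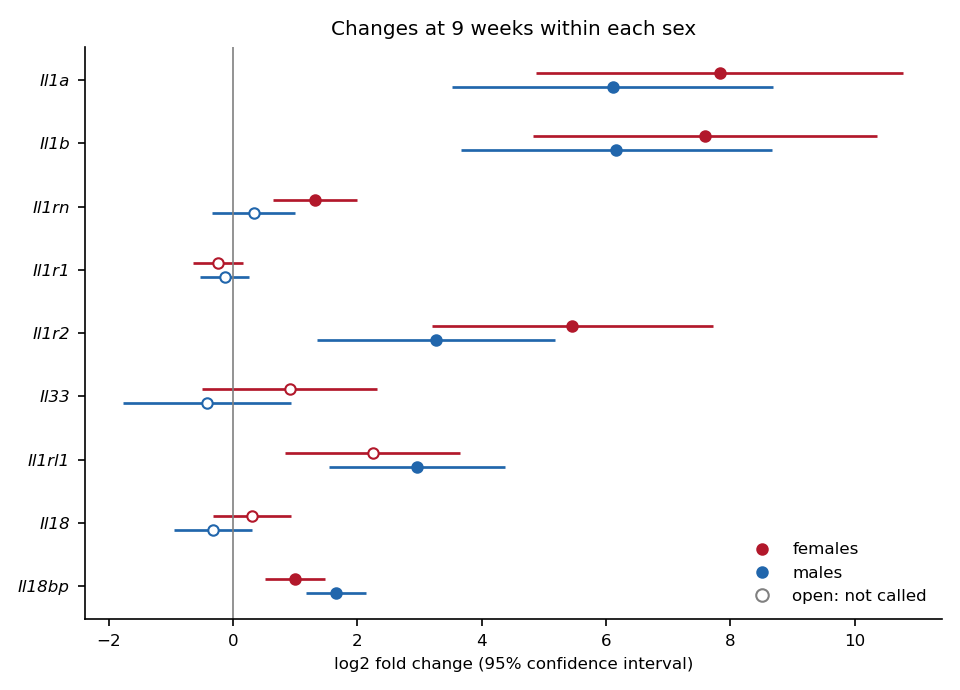
Log2 fold change at 9 weeks against vehicle with its 95% interval from edgeR, for each member in females and in males (filled points are called, open points are not). The intervals of both sexes overlap for every member, and Il1rn is 1.32 in females and 0.33 in males.

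At 15 weeks fewer members stood above vehicle. With the sexes averaged, 2 of 9 members were called higher, Il1b and Il18bp, where 3.46% of all tested genes were. Il1b had 0.862, 0.525, 1.56, 0.785 and 7.21 CPM in females and 0.237, 1.71, 2.09, 0.413 and 9.01 CPM in males, so that 5 of 10 libraries lay above all vehicle libraries and replicate 5 of each sex was highest. Its change was 2.51 (SE 0.868, edgeR adjusted p = 0.0456), and 1.89 without 15-week female replicate 5 and 3.33 without vehicle female replicate 1. The call on Il1b held in 8 of 20 fits that each left out 1 library, with adjusted p up to 0.149. It was lost without any 1 of the vehicle males, vehicle female replicates 2 to 5, 15-week female replicates 3 and 5 or 15-week male replicate 5.

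Il18bp had 8.24, 13.3, 8.91, 9.59 and 12.7 CPM in females at 15 weeks and 6.41, 6.08, 9.38, 5.51 and 8.53 CPM in males. All 5 female libraries exceeded all vehicle females, while male libraries overlapped with vehicle. The averaged change was 0.54 (SE 0.165, edgeR adjusted p = 0.0265), and without vehicle male replicate 1, which had the lowest Il18bp, the adjusted p was 0.0544. Il1a (2.51, adjusted p = 0.0736), Il1r2 (1.17, adjusted p = 0.258) and Il1rl1 (1.11, adjusted p = 0.0985) were not called. Within each sex 0 of 9 members were called at 15 weeks by edgeR or DESeq2. By edgeR 8.92% of all tested genes were called in males and 0.0984% in females. An unadjusted edgeR p under 0.05 was met by 2 members in males and 2 in females. Of all 16261 tested genes 5114 and 1776 met it. The male change minus the female change at 15 weeks was called for 0 of 9 members and 0% of all tested genes by edgeR. DESeq2 called 0 members. No member had an unadjusted edgeR p under 0.05, where 1245 of the 16261 tested genes did.

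Between the 2 treated times the direction was down. From 9 to 15 weeks 4 of 9 members were called lower, where 1.91% of all tested genes were: Il1a (-4.45, SE 0.790, edgeR adjusted p = 0.00586), Il1b (-4.37, SE 0.767, adjusted p = 0.00582), Il1r2 (-3.19, SE 0.658, adjusted p = 0.0130) and Il18bp (-0.78, SE 0.164, adjusted p = 0.0134). Il1rl1 missed the threshold at -1.49 (adjusted p = 0.0574), but DESeq2 called it (-1.48, adjusted p = 0.0192). So did edgeR in 3 of 20 fits that each left out 1 library, those without 9-week female, 15-week female or 15-week male replicate 5 (adjusted p from 0.0217 to 0.0371). Il1r2 at 15 weeks had 1, 2, 15, 2 and 22 counts in females and 3, 12, 3, 0 and 35 in males, 6 of 10 libraries below every 9-week library. Il1rl1 had 0.287, 0.683, 2.85, 0.820 and 3.11 CPM in females and 2.55, 2.77, 0.845, 0.138 and 6.88 CPM in males. In males all 5 libraries of Il18bp at 15 weeks lay below all 5 at 9 weeks. With the mean level of fibroblast and mesenchyme markers as a term in the model, 0 of 9 members and 0 of 16261 genes were called, against 4 members and 378 genes without that term. The values of the 4 members stayed negative (Il1a -3.39, Il1b -3.26, Il1r2 -2.22 and Il18bp -0.87, adjusted p from 0.217 to 0.328). These markers were themselves lower at 15 weeks, with a median sum of 104 CPM against 333 CPM at 9 weeks.

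Within one sex, the fall from 9 to 15 weeks was called for 0 of 9 members in males and 0 of 9 in females by edgeR, where 0% of all tested genes were called in either sex. At an unadjusted edgeR p under 0.05 there were 5 members in males and 6 in females, beside 2179 and 2046 of 16261 genes. DESeq2 called 2 in males (Il1b and Il18bp) and 3 in females (Il1a, Il1b and Il1r2), beside 104 and 39 of all 46078 genes. Without female replicate 5 at 9 weeks, edgeR also called Il1a, Il1b and Il1r2 in females, with adjusted p of 0.0290 for Il1a and Il1b and 0.0355 for Il1r2. That library had the lowest values of these genes among 9-week females, so leaving it out raises their 9-week level.

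Males and females were also compared within each condition. By edgeR 0 of 9 members were called in vehicle, 0 of 9 at 9 weeks and 0 of 9 at 15 weeks. Over all tested genes 0.178%, 0.0492% and 0.184% were called. The members with an unadjusted edgeR p under 0.05 numbered 3, 0 and 4, beside 3035, 630 and 2009 of 16261 genes. DESeq2 called 1 member in vehicle, Il1rn, and 0 at 9 and at 15 weeks. Il1rn was 1.06 higher in vehicle males than in vehicle females on the log2 scale (SE 0.330, edgeR adjusted p = 0.0867), with male libraries at 59.2 to 225 CPM and female libraries at 23.8 to 101.1 CPM. Il33 in vehicle had a male minus female difference of 1.76 (SE 0.692, adjusted p = 0.167), with 1.21 to 7.87 CPM in males and 0.324 to 2.68 CPM in females. Without vehicle female replicate 1 both were called, at adjusted p of 0.00812 for Il1rn and 0.0297 for Il33, and without male replicate 4 Il1rn was called too. Without vehicle male replicate 1 neither was called. The differences were then 0.62 for Il1rn (edgeR adjusted p = 0.486) and 1.22 for Il33 (edgeR adjusted p = 0.553). At 9 weeks the estimates for Il1a (-0.49, 95% interval -2.40 to 1.41) and Il1b (-0.42, 95% interval -2.32 to 1.47) included 0.

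The rest of the IL-1 pathway was read from lists of known parts, at 9 weeks against vehicle with the sexes averaged. Of 18 tested genes among 20 feedback inhibitors and targets of IL-1 signalling, 14 were called higher and none lower. The leading ones were Cxcl2, a neutrophil chemokine (9.44), Ptgs2, the inducible prostaglandin synthase (5.48), and Lcn2, an iron-scavenging antimicrobial protein (4.85). Cxcl2 had 0 counts in every vehicle female and at most 3 in a vehicle male, so its size rests on few counts. At 15 weeks 4 of these 18 were called higher than vehicle, Zc3h12a, Icam1, Lcn2 and Saa3, and 8 of 18 were called lower than at 9 weeks, among them Ptgs2 (-5.58) and Cxcl2 (-4.54). The median log2 fold change of this list at 9 weeks was 1.79, against -0.02 over all tested genes. For comparison with the lists here and in the next 3 paragraphs, 5.51% of all tested genes were called higher at 9 weeks. At 15 weeks 3.46% were called higher than vehicle, and 1.91% were called lower than at 9 weeks. Called lower than vehicle were 452 of 16261 genes at 9 weeks and 633 at 15 weeks. An unadjusted edgeR p under 0.05 was met by 4720 genes at 9 weeks.

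Receptor chains, adaptors and processing genes were read next. Of 5 tested further receptor chains 0 were called at 9 weeks by edgeR, 1 had an unadjusted p under 0.05 and DESeq2 called 0. The shared coreceptor Il1rap had a change of -0.26 (adjusted p = 0.310) and the negative regulator Sigirr one of -0.12 (adjusted p = 0.472). Il18rap, the signalling chain of the IL-18 receptor, had a change of 2.52 with an edgeR adjusted p of 0.000254 but stayed under the FPKM minimum. Of 23 adaptors, kinases and NF-κB subunits, 1 was called higher, the subunit Rel (0.70), and 1 lower, the ubiquitin ligase Peli2 (-0.79). For genes called higher this is not above the 5.51% over all tested genes. Of 18 tested inflammasome and processing genes 3 were called higher, Mcpt1 (4.58), a mucosal mast cell protease, and the caspases Casp4 (0.72) and Casp8 (0.58), whereas Casp1, which cuts IL-1β and IL-18, had a change of 0.17 (adjusted p = 0.153). Nlrp3, the inflammasome sensor, had a change of 4.70 (adjusted p = 0.000304) but stayed under the FPKM minimum.

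Targets downstream of IL-18 and IL-33 were read the same way. Of 9 tested interferon-gamma and type 2 genes, 6 were called higher at 9 weeks, led by the interferon-induced genes Cxcl9 (5.23), Gbp2 (3.13) and Cxcl10 (2.81). At 15 weeks 4 of the 9 were called higher than vehicle, among them Areg, Cxcl9 and Gbp2, and 3 were called lower than at 9 weeks, Cxcl9, Cxcl10 and Gbp2. Of 2 tested further ligands edgeR and DESeq2 called 0, and 1 had an unadjusted p under 0.05. Il1f9, which encodes the epithelial cytokine IL-36γ, had a change of 5.20 (edgeR adjusted p = 0.00133) under the FPKM minimum and Il1f8 one of 1.29 (adjusted p = 0.204).

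Transcripts of white blood cells moved with these results. Of 9 tested neutrophil markers 5 were called higher at 9 weeks, S100a8 (8.03) and S100a9 (7.07) most, as were 5 of 13 monocyte and macrophage markers, 3 of 7 mast cell markers and 2 of 12 T cell and innate lymphoid markers. Without the fold and FPKM minima, 8, 7, 4 and 10 of these lists passed the edgeR adjusted p of 0.05, in either direction. S100a8 had 0 counts in every vehicle female and at most 16 in a vehicle male, so its size rests on few counts. The median log2 fold change was 1.40 over the T cell and innate lymphoid markers and 1.21 over the macrophage markers. Of 14 fibroblast, 10 smooth muscle and 10 endothelial markers 0 were called at 9 weeks by edgeR or DESeq2, and 0, 1 and 0 had an unadjusted p under 0.05. Within a sex, 8 of 10 smooth muscle markers were called lower at 9 weeks in males (median log2 fold change -4.81) and 0 of 10 were called in females (median 2.32). The vehicle males include replicate 1, whose summed smooth muscle markers were 6043 CPM. The other vehicle males had 137.6 to 185.1 CPM and 9-week males 81.7 to 146.7 CPM. The part of that library in the calls in males was not tested. At 15 weeks against vehicle edgeR called 7 smooth muscle, 5 fibroblast and 2 endothelial markers lower with the sexes averaged. DESeq2 called 0, 5 and 2 markers of these lists lower. The same library was among the controls. Marker calls without vehicle male replicate 1 are not given here. From 9 to 15 weeks 5 of the 9 neutrophil, 3 of the 13 macrophage and 3 of the 14 fibroblast markers were called lower. Of 16 epithelial markers 1 was called, Krt20, and of 4 tested squamous markers 1, Sprr1a. DESeq2 also called 1 mast cell marker lower, and the summed mast cell markers had medians of 71.4 CPM in vehicle, 75.8 CPM at 9 weeks and 65.9 CPM at 15 weeks. The summed macrophage markers were 39.8 to 241 CPM in vehicle (median 89.3), 89.7 to 316 CPM at 9 weeks (median 244) and 59.3 to 214 CPM at 15 weeks (median 102). The summed neutrophil markers were 12.9 to 179 CPM in vehicle and 10.97 to 217 CPM at 9 weeks, but Ly6g made up 97.5 to 100% of that sum in vehicle. Without Ly6g, a choice made after its values were seen, the sum was 0 to 3.87 CPM in vehicle (median 0.561), 0.591 to 134 CPM at 9 weeks (median 26.3) and 0.689 to 19.7 CPM at 15 weeks (median 2.67). Their part in the changes of the members was not tested.

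Library by library, S100a9 stood beside Il1b, whereas Ly6g, another gene of the neutrophil list, did so only in part. In 9-week females S100a9 had 8.76, 9.08, 4.92, 54.8 and 0.108 CPM, highest in replicate 4 and lowest in replicate 5, as Il1b was. In 9-week males it had 15.7, 31.7, 13.3, 1.78 and 3.06 CPM, highest in replicate 2, as Il1b was, and at 15 weeks it was highest in replicate 5 of each sex, at 2.09 CPM in females and 8.46 CPM in males. Il1rl1 and Il18bp were above vehicle in female replicate 5 at 9 weeks too, where S100a9 had 2 counts and S100a8 had 0.

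**Figure D5:**
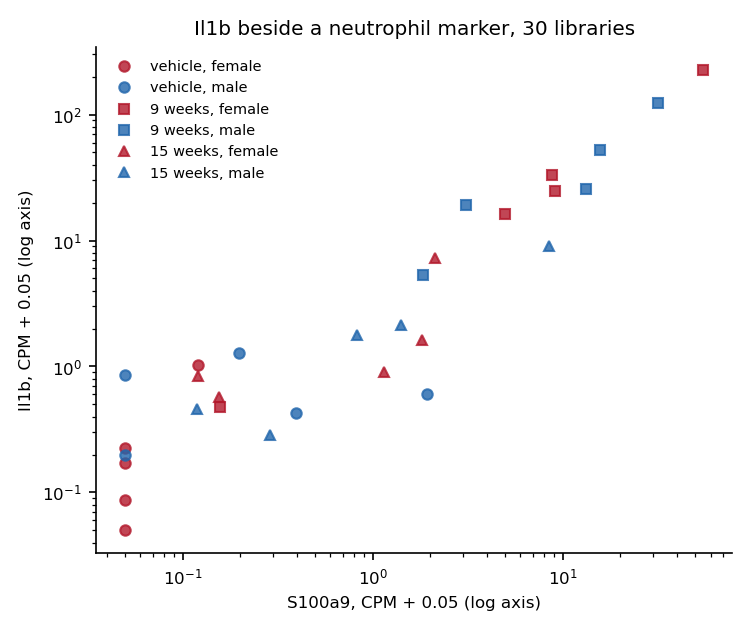
CPM of Il1b against CPM of the neutrophil marker S100a9 in the 30 libraries (log axes, symbols by condition and sex). The highest library in both is 9-week female replicate 4, at 226 and 54.8 CPM, and most vehicle libraries lie at the lower left. Ly6g, a marker of the same list that was not highest in that library, is not drawn.

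For each member the genes with the most similar profile over the 30 libraries were listed by Spearman rho of log2 CPM, as a description of libraries that share groups and depth. Il1b was most like Irg1 (0.937), Ccr1 (0.934) and Gbp5 (0.918), and Sp110 (0.918) and Clec7a (0.914) were among those most like Il1a. Il1r2 was most like Ptgs2 (0.919), Mmp3 (0.917) and Igsf6 (0.912), and Il1rl1 most like Serpina3g (0.841), Spp1 (0.837) and Stx11 (0.832). Il18bp was most like Ido1 (0.925), B2m (0.891) and AW112010 (0.879), while Il1rn was most like Rab32 (0.897), Rab31 (0.894) and Hspa12a (0.893). Il18 was most like Ggh (0.930), Lpcat1 (0.917) and St6galnac4 (0.885), Il33 most like Slc12a4 (0.885), Robo1 (0.875) and Nuak1 (0.874), and Il1r1 most like Cyp2r1 (0.790), Hepacam2 (0.746) and Golga5 (0.741). Among the members themselves, Il1b and Il1r2 had a rho of 0.888 and Il1r2 and Il1rl1 one of 0.822, whereas Il18 and Il18bp had -0.21 and Il1b and Il1r1 had -0.24.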

How the data were processed

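RNA from 30 mice was sequenced from poly-A selected, stranded libraries (TruSeq Stranded mRNA). Per the labels and the study's methods, the authors used bcl2fastq 2.20.0.422, CASAVA, Trim Galore, STAR (mm10/GRCm38), featureCounts and StringTie, and deposited 1 table of raw read counts per gene together with FPKM and TPM values per library. The strand setting of featureCounts is not given in the sources used here. FPKM files of the authors hold 11 to 20 repeated lines a library, which were summed, and 6 genes had no FPKM.

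Counts were tested as deposited, with edgeR 4.0.16 (R 4.3.3): TMM scaling (factors 0.832 to 1.10), filterByExpr, 1 coefficient for each of 6 groups over all 30 libraries, glmQLFit and glmQLFTest, 14 contrasts, and Benjamini-Hochberg adjustment over 16261 genes. Thresholds (adjusted p of 0.05, log2 fold change of 0.4, mean FPKM of 1) followed the study, whose test, DESeq2 (1.42.0), served as an alternative. Scripts were tested on simulated data. The common biological coefficient of variation was 0.319, and same-group libraries had Spearman correlations of 0.941 to 0.994, so none was counted as a copy. Nothing in the labels ties replicate numbers to litters or cages, and p-values measure the spread between these mice.

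CPM scales a gene's counts to the library total over the tested genes times the TMM factor. The members and lists were chosen with earlier results of these data known. Named beside the 9 members were, of each pathway list, up to 3 called genes a direction with the largest change at 9 weeks, with further genes of these lists chosen after their values were seen (those under the FPKM minimum, Casp1, Il1rap, Sigirr, Il1f8 and those called at 15 weeks), the 3 genes most like each member (a gene that this rule names is not reported here), and the 2 markers of largest change (Krt20, Sprr1a and Ly6g were named after their values were seen). Alternatives were DESeq2, median-of-ratios scaling, no filter, no FPKM or fold threshold, the compared libraries alone, the replicate number as a block, a mesenchyme covariate, 4 libraries left out together and each library left out in turn. Promoters and start sites came from RefSeq (GRCm38.p6).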

Additional observations from a re-analysis of the deposited data

Results flagged for a closer look

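Each member's log2 CPM was checked in each group of 5 for a library far from the other 4 (Dixon's test, gap over range above 0.71). The values are printed below as CPM. Of 54 such tests 4 passed, where chance passes about 1 in 20. Il18 in 15-week male replicate 1 was 42.1 CPM, against 92.9 to 125 CPM in the other 4. Il18bp in vehicle male replicate 1 was 3.16 CPM, against 5.41 to 5.91 CPM, in the library with the high squamous and smooth muscle transcripts. Il1r1 in vehicle female replicate 1 was 17.1 CPM, against 28.2 to 31.2 CPM. Il1a in vehicle female replicate 1 was 0.176 CPM (5 counts), against 0 in the other 4. With those tied at 0, any count above 0 would have passed, so this result carries no weight.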

How the results depend on the processing

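Scaling by median of ratios, dropping the FPKM minimum and dropping the fold threshold moved no count of called members by more than 1.5 times. DESeq2 called 2 members from 9 to 15 weeks in males, 3 in females and 1 between vehicle sexes, each against 0 by edgeR, beside 104, 39 and 479 of 46078 genes. It also called Il1rl1 from 9 to 15 weeks with the sexes averaged and at 9 weeks in females. Without the filter on low counts 1 member was called at 15 weeks with the sexes averaged, against 2 (Il1b at 2.53, adjusted p = 0.0543). With only the compared libraries, 3 were called at 9 weeks in females, against 5 (265 of 14796 genes): Il1a and Il1r2 fell under the filter on low counts, Il1rn lost its call (adjusted p = 0.0721) and Il1rl1 gained one. The mesenchyme covariate left 0 called from 9 to 15 weeks with the sexes averaged, against 4 (0 of 16261 genes, against 378), and 3 at 9 weeks in females (with fewer genes called in all than the 471 of the fit without it). At 15 weeks with the sexes averaged it lost Il18bp (0.50, adjusted p = 0.0600) and gained Il1rn (0.78, adjusted p = 0.0216). Replicate numbers did not pair the libraries (12 of 75 same-number correlations of deviations were over 0.1, and 4 of 30 libraries correlated best with their own number). With the replicate block 1 was called at 15 weeks with the sexes averaged, against 2 (Il1b at 2.26, adjusted p = 0.104), and no other call changed.

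Next, 4 libraries were left out together: vehicle male replicate 1, vehicle female replicates 1 and 5 and 9-week female replicate 5. Then 1 member was called at 15 weeks with the sexes averaged (Il1rn, in place of Il1b and Il18bp). From 9 to 15 weeks 1 was called in males and 5 in females, and 1 between vehicle sexes. In these comparisons 515, 35, 864 and 254 of 16587 genes were called. The rule by which the 4 libraries were chosen is not given here. Among 9-week females replicate 5 had the lowest Il1a, Il1b and Il1r2, so leaving it out raises their 9-week level by construction. Leaving out each library in turn gave 6 called in every fit at 9 weeks with the sexes averaged, 4 to 5 in males and 4 to 6 in females. It gave 0 to 2 at 15 weeks with the sexes averaged. From 9 to 15 weeks it gave 4 to 5 with the sexes averaged, 0 to 1 in males and 0 to 3 in females, and between vehicle sexes 0 to 2.

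Signs turned only for members not called. Il18 at 9 weeks, sexes averaged, was 0.00323 with only the compared libraries, 0.23 without the 4 libraries and -0.091 to 0.12 with 1 library left out. Under the mesenchyme covariate Il33 was -0.094 at 9 weeks, 0.24 at 15 weeks and 0.34 from 9 to 15 weeks with the sexes averaged, 0.11 at 9 weeks in males, -0.30 in females and -0.00397 between vehicle sexes, and Il1rn was 0.054 from 9 to 15 weeks. Without the 4 libraries Il33 was 0.084 at 15 weeks with the sexes averaged and 0.12 at 9 weeks in males. With 1 library left out Il33 at 9 weeks in males was -0.65 to 0.12, and Il1r1 from 9 to 15 weeks with the sexes averaged was -0.17 to 0.012. Apart from settings that leave out libraries or genes, the cause was not tested. Few counts limit Il1a and Il1r2 in vehicle, where a library held at most 8 and 13 counts, and a design with 5 mice a group limits all sex comparisons.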
